A study of Homo sapiens with 8 samples.

Results

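The H3K4me1 peaks of human chromosome 3 were followed along its length in MDA-MB-231, a widely used human cell line from triple-negative breast cancer. All rows that the deposited peak lists place on chromosome 3 were taken, 4843 in the ARID1A knockout list and 5542 in the control list, of 73600 knockout and 82994 control peaks on chromosomes 1 to 22 and X. They were placed by their midpoints in 40 bins of 5 Mb counted from the first base. The peaks, covered bases, pileup and background of these bins are the values by which the chromosome was singled out, so they are given as a description. The series held 8 samples in 4 groups of 2, which were knockout cells immunoprecipitated for H3K4me1, knockout input, control cells immunoprecipitated for H3K4me1 and control input. The immunoprecipitates were compared with the input of the same genotype in 1 list per genotype, in hg38 coordinates. The genotype labels read "ARID1A knockout" and "control", and say neither how ARID1A was removed nor whether 1 clone or a pool was grown. The antibody label and the titles say H3K4me1, while the protocol text names H3K4me3 for the same antibody, and the label was followed. Because each genotype has a single list, replicate spread could not be measured, every difference describes these 2 lists without a p-value, and technical differences between them cannot be told apart from genotype. No peak of ARID1A itself bears on the label, because the gene lies on another chromosome.

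H3K4me1, monomethylated lysine 4 of histone H3, marks enhancers, both active and poised, and the flanks of active transcription start sites, where it gives way to the trimethylated form at the start itself. ARID1A is a subunit of the BAF form of the SWI/SNF complex, which slides and evicts nucleosomes, and loss of SWI/SNF function has its best known effects at enhancers bound by AP-1 family factors. The input library samples the same chromatin without an antibody. Its local level follows how much DNA of a region the cells carry, how readily nuclease cuts it and how well reads can be placed there. In a bulk culture, a mark on fewer cells and a weaker mark in every cell cannot be told apart.

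Promoter sequences are shown for genes whose peaks the results below turn on. Each is the stretch of 250 bases before a RefSeq start site (GRCh38.p14), written 5′ to 3′ in the direction of transcription, and each was covered from end to end in one list and not touched in the other. Capitals mark 4 motifs on either strand, TGANTCA (the AP-1 motif), GGAATG (a core of the TEAD motif), GGGCGG (the GC box) and the retinoic acid response element, a spaced repeat of a nuclear receptor half-site. The first 5 sequences were covered in the knockout list alone and the last, of RARB, in the control list alone.
PPARG, chr3:12301725-12301974, plus strand: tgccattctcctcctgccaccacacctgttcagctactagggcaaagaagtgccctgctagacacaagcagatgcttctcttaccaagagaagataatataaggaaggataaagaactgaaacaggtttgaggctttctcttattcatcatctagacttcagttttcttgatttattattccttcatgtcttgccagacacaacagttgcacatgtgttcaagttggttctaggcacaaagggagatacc
PPARG, chr3:12351167-12351416, plus strand: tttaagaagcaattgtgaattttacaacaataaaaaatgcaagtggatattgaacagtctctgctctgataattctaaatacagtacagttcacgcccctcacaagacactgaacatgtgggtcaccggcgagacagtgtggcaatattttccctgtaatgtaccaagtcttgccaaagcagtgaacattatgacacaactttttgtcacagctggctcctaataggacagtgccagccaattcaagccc
FHIT, chr3:61251453-61251702, minus strand: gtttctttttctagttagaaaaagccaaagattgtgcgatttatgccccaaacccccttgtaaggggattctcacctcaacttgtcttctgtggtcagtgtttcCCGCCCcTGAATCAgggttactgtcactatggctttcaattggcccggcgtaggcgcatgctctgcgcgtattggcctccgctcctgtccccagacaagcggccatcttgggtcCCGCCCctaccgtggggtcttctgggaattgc
TMEM45A, chr3:100492369-100492618, plus strand: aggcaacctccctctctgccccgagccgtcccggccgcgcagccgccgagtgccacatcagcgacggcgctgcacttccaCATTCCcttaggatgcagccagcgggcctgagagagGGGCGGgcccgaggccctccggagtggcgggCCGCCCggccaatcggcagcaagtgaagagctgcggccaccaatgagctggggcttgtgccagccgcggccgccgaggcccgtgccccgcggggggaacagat
IGF2BP2, chr3:185821143-185821392, minus strand: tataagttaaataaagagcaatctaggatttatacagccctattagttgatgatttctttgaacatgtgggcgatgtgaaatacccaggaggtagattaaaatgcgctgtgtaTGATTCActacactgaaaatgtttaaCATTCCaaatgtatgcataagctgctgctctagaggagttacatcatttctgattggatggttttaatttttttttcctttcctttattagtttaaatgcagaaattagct
RARB, chr3:25428013-25428262, plus strand: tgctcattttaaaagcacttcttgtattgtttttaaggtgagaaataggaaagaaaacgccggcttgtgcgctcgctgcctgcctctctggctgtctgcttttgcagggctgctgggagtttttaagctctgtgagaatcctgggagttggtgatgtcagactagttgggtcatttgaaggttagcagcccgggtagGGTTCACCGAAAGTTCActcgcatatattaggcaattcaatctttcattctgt
Neither PPARG stretch held any of the motifs, and they contained 0 and 3 CpG dinucleotides. The TMEM45A promoter held 26 CpG, with GGGCGG starting 134 and 103 bases before the start site and GGAATG 170 bases before it. FHIT had TGANTCA 139 bases before its start and GGGCGG 146 and 32 bases before it, and IGF2BP2 had it 137 bases before. The retinoic acid response element began 53 bases before the RARB start. Its exact half-sites occurred in 1 of 22012 RefSeq promoters searched genome-wide. That motif was added after the RARB sequence was seen and has its half-sites, so the match there was fixed in advance. Other forms of the element were not searched. All positions given are those of the first base of the match. A match describes letters in the window and not a bound site.

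Chromosome 3 carried fewer peaks in the knockout list but nearly as many covered bases. Its peaks covered 12414381 bases in the knockout list and 13010126 in the control list, a ratio of 0.954, against 0.963 for the other 22 chromosomes. The number of peaks had a ratio of 0.874, against 0.888 elsewhere. Chromosome 3 held 6.58% of the knockout peaks (95% exact interval 6.40 to 6.76) and 6.68% of the control peaks (6.51 to 6.85), intervals that overlap and cover counting error only. Median peak width was 1614 bases in the knockout list and 1407.5 in the control list. Peaks of 10000 bases or longer numbered 122 in the knockout list and 137 in the control list. Restricted to strong peaks, those with a −log10 q of at least 5 against their own input, the order turned round, with 1822 peaks in the knockout list and 1732 in the control list, a ratio of 1.05, while the other 22 chromosomes had a ratio of 1.16. The same restriction turned the covered bases to a ratio of 1.07.

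Peaks without a partner in the other list were a smaller share of the knockout list than of the control list. With both lists cut to strong peaks, 30.1% of knockout and 26.1% of control peaks had no strong partner. Against the whole other list, 53 of the 1822 strong knockout and 50 of the 1732 strong control peaks had no partner. Without an overlap of at least 1 base were 982 knockout peaks, 20.3% (19.2 to 21.4), and 1578 control peaks, 28.5% (27.3 to 29.7), against 21.4% of knockout and 28.1% of control peaks on the other chromosomes. These single-list peaks were weak and short, with a median −log10 q of 1.96 in the knockout list and 1.84 in the control list, where shared peaks had medians of 4.59 in the knockout list and 4.36 in the control list. Their median width was 819.5 bases in the knockout list and 767 in the control list, against 1938 for shared knockout peaks and 1837.5 for shared control peaks. The bases covered in both lists, 9126066 in all, made up 73.5% of the knockout and 70.1% of the control coverage. By position, 59.5% of the knockout peaks (58.2 to 60.9) and 58.6% of the control peaks (57.3 to 59.9) had their midpoint inside a protein-coding gene record, and 19.0% of the knockout and 18.8% of the control peaks lay more than 50000 bases from one.

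Along the chromosome, peaks were denser where genes were in both lists. Bins of 5 Mb held between 14 and 241 peaks in the knockout list and between 29 and 299 in the control list. The richest, from 45 to 50 Mb on the short arm, had 241 knockout and 299 control peaks over 100 protein-coding genes, and peaks covered 13.5% of it in the knockout list and 16.0% in the control list. The second in covered bases, from 10 to 15 Mb with 40 genes, had 206 knockout and 244 control peaks over 644900 bases in the knockout list and 651813 in the control list. The poorest stretch ran from 75 to 95 Mb around the centromere, where each bin held at most 33 knockout and 46 control peaks. Genes with peaks there included GBE1, the glycogen branching enzyme, with 33990 knockout and 28074 control bases, and ROBO2, an axon guidance receptor, with 28654 knockout and 19450 control bases. Over the 40 bins the number of genes and of peaks went together, with a Pearson r of 0.633 (Spearman 0.631) for knockout peaks and 0.686 (0.671) for control peaks, and covered bases in the 2 lists with an r of 0.959 (0.941). These are descriptions over bins of the same 2 lists.

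**Figure D1:**
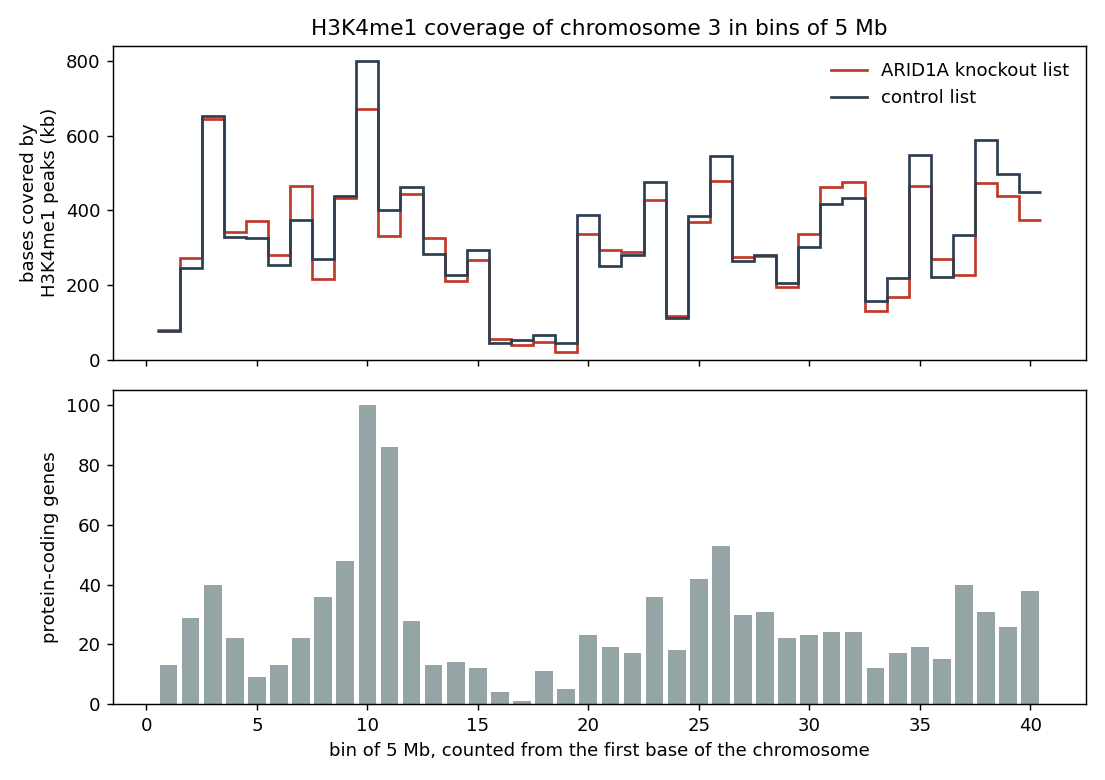
Bases covered by H3K4me1 peaks in each bin of 5 Mb (upper panel, kb, red for the ARID1A knockout list and dark blue for the control list) and protein-coding genes per bin (lower panel), against the bin number from the first base of chromosome 3; the last bin is cut short by the chromosome's end. The lines run close together, with a gap in favour of the control list in bin 10 (672618 knockout and 801781 control bases) and of the knockout list in bin 7 (465268 knockout and 373615 control bases), and both fall low in bins 16 to 19.

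No bin had 1.5 times or more the covered bases of the control list in the knockout list, and 1 bin was lower by that ratio. Genome-wide, 2.81% of the 5 Mb bins with at least 40 peaks over both lists passed that ratio upward and 2.11% downward. The 1 bin lay from 90 to 95 Mb and includes the centromere, and it was among the poorest. It held 14 knockout and 29 control peaks, covering 21158 knockout and 46064 control bases, a ratio of 0.459. Its genes that differed most were PROS1, which encodes the anticoagulant protein S, with 4452 knockout and 7859 control bases, and NSUN3, a mitochondrial RNA methyltransferase, with 3042 knockout and 5423 control. The bin nearest to the threshold on its other side was 180 to 185 Mb on the long arm, with 226041 knockout and 333897 control bases, a ratio of 0.677. The highest ratios were 1.25 from 30 to 35 Mb, 1.23 in the sparse bin from 75 to 80 Mb (33 peaks in each list) and 1.22 from 175 to 180 Mb. In all, 34 of the 40 bins had a ratio between 0.8 and 1.25, with a median of 0.958. Knockout peaks were fewer in 35 bins, and in 12 of the 40 bins fewer knockout peaks covered more bases.

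The input background behind the peaks, knockout over control relative to the genome, was lower on chromosome 3 than on any other chromosome. It was estimated for each peak as (pileup + 1) / fold − 1, in units of the deposited pileup, the height of stacked fragments over the peak. Its median was 4.33 in the knockout list and 4.27 in the control list, whereas the other 22 chromosomes had 4.63 in the knockout list and 3.66 in the control list. Divided by the genome-wide ratio of 1.25, knockout over control, chromosome 3 stood at 0.814, the lowest of 23 chromosomes, the other 22 ranging from 0.886 to 1.37. Chromosome 13, at 1.37, stood further from the genome's level in the other direction. The pileup moved with it. Median pileup was 15.8 in the knockout list and 14.9 in the control list, a ratio of 1.06, against 1.22 elsewhere. The fold over input, which divides the background out, had a median of 3.11 in the knockout list and 2.99 in the control list.

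This relative background was not even along the chromosome but stepped between long runs of bins. It was under 0.85 in 22 of the 40 bins, 55%, against 10.4% of all bins genome-wide and 6.98% of those on the other chromosomes. The value 0.85 was chosen after the bins were seen. The bins nearest to it were 75 to 80 Mb inside, at 0.838, and 190 to 195 Mb outside, at 0.862. A stretch at the lowest background of both lists, 2.60 in the knockout list and 2.40 in the control list, would read 0.869, and 2.498% of knockout and 1.59% of control peaks lay at those floors. The low bins formed 3 runs, from 0 to 30 Mb (0.734 over its peaks), from 55 to 110 Mb (0.699) and from 165 to 190 Mb (0.647). Between and after them were runs near the genome's level, from 30 to 55 Mb (1.005), from 110 to 165 Mb (0.981) and, somewhat lower, from 190 to 200 Mb (0.887).

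Some of the steps were sharp, and they did not all lie in the same list. In the knockout list the background was 5.54 in the first run and 5.87 in the second, then 3.87, 3.93, 3.75 and 4.10 in the rest, so its one wide step was near 55 Mb. In the control list it was 6.06, 4.69, 4.44, 3.22, 4.66 and 3.72 over the same runs, with steps near 30, 110, 162 and 191 Mb and little change near 55 Mb. Taken by 1 Mb, the control background was 5.68 at 29 to 30 Mb and 4.40 at 30 to 31 Mb, while the knockout background in those megabases was 5.88 and 6.16. On the long arm the control background was 5.13 at 190 to 191 Mb and 3.19 at 191 to 192 Mb, beside 4.11 and 3.44 in the knockout list. Near 162 Mb the control change was drawn out, with 2.69 at 161 to 162 Mb, 3.45 at 162 to 163 Mb and 4.80 at 169 to 170 Mb. The knockout background in those megabases was 3.50, 2.95 and 3.88. Near 55 Mb it was the knockout list that stepped, with 5.89 at 53 to 54 Mb and 3.98 at 56 to 57 Mb, beside 4.60 and 4.53 in the control list. Peaks were few between, so that step is placed less closely. At 54 to 55 Mb and 55 to 56 Mb the knockout list had 3 and 15 peaks, with 3.49 and 3.95. The control list had 1 peak in each, with 3.46 and 2.86. A short island broke the run from 55 to 110 Mb, with 5.31 and 5.48 in the knockout list at 61 to 62 and 62 to 63 Mb, beside 4.58 and 4.91 in the control list. The megabase after it had 3.84 in the knockout list and 4.36 in the control list. How much DNA each culture carried in these runs was not measured apart from the input, and its part in these steps was not tested.

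**Figure D2:**
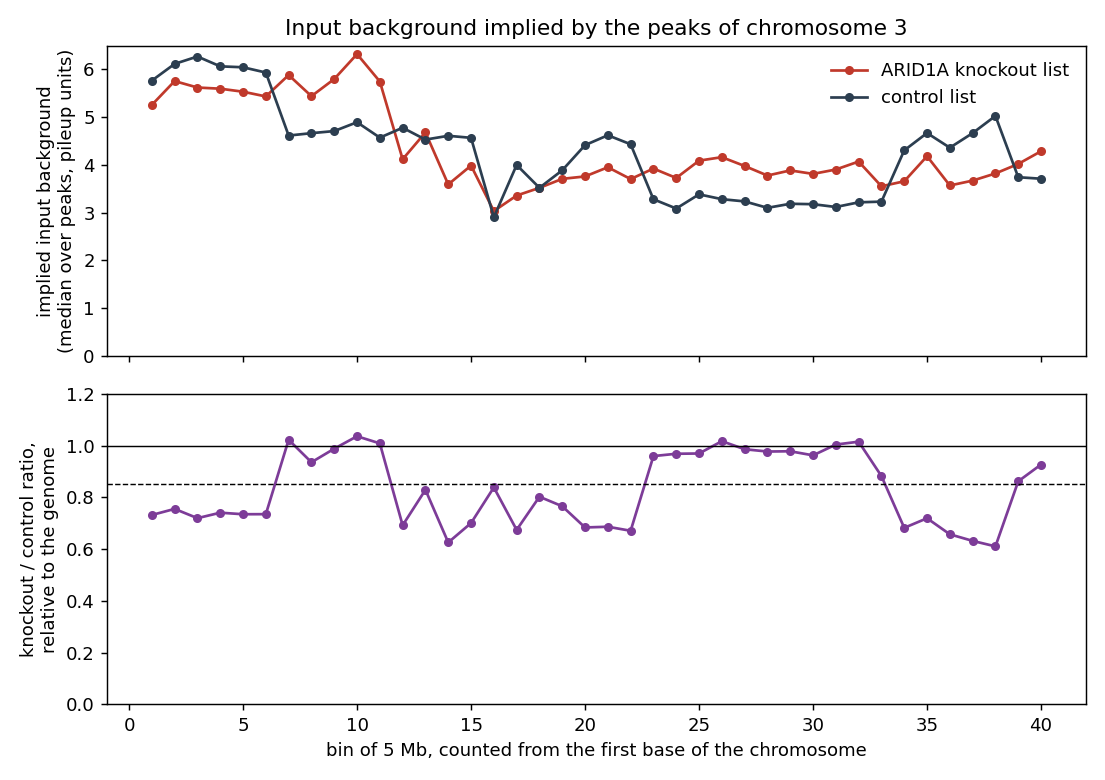
Median implied input background over the peaks of each 5 Mb bin (upper panel, pileup units, red for the ARID1A knockout list and dark blue for the control list) and its knockout over control ratio divided by the genome-wide ratio (lower panel), against the bin number along chromosome 3; the solid line marks a relative ratio of 1 and the dashed line 0.85. The ratio drops below the dashed line in 3 runs of bins, 1 to 6, 12 to 22 and 34 to 38.

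Peaks found in both lists showed the same steps in their height but not in their fold over input. Over 1570 pairs in the low runs, the median pileup ratio, knockout over control, was 0.893 (interquartile range 0.751 to 1.05), and over 1771 pairs in the other runs it was 1.16 (0.989 to 1.36). Elsewhere in the genome it was 1.18. The fold ratio of the same pairs had medians of 1.01 in the low runs and 0.975 in the others. By run, in order along the chromosome, the pileup ratio was 0.947, 1.17, 0.906, 1.18, 0.821 and 1.03. Pileup and background enter the same formula, so their agreement over the 40 bins (Pearson r of 0.848, Spearman 0.839) is partly built in. The relative background and the ratio of covered bases had an r of 0.140 (Spearman 0.154) over those bins.

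**Figure D3:**
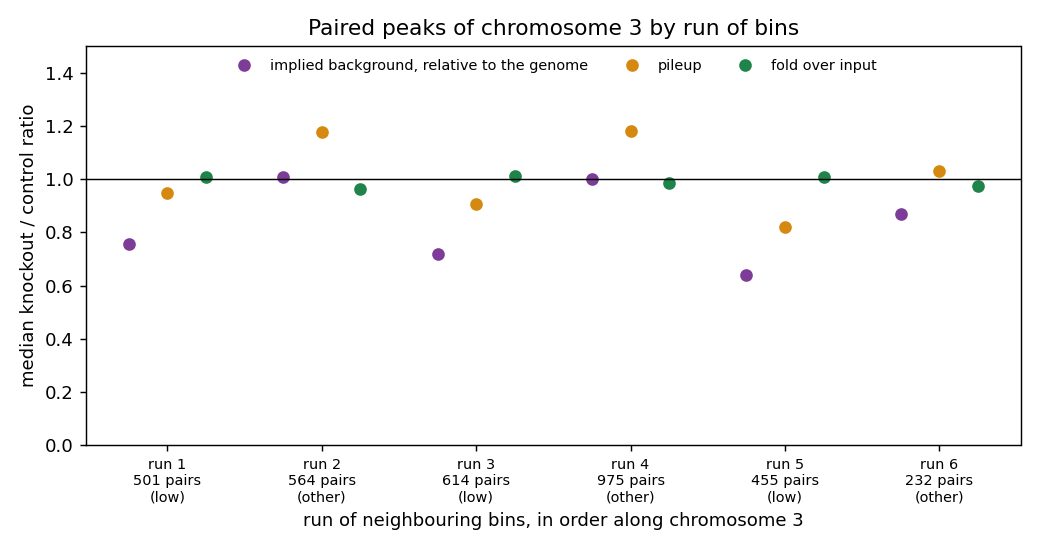
Median knockout over control ratio of peaks paired between the lists in 6 runs of bins, in order along chromosome 3, for implied background relative to the genome (purple), pileup (orange) and fold over input (green). Pileup ratios lie under 1 in the 3 low runs (0.947, 0.906 and 0.821) and above it in the others, while fold ratios stay between 0.961 and 1.01.

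The runs also differed in how many peaks stood in one list alone. Control peaks without a knockout partner were 32.1% (30.3 to 33.9) in the low runs and 24.9% (23.3 to 26.6) in the others. Knockout peaks without a control partner were 22.5% (20.8 to 24.2) in the low runs and 18.2% (16.7 to 19.8) in the others. The widest gap was on the distal long arm from 165 to 190 Mb, where 114 of 649 knockout peaks, 17.6% (14.7 to 20.7), and 317 of 848 control peaks, 37.4% (34.1 to 40.7), stood alone. Covered bases there had a ratio of 0.839, and peaks of 10000 bases or longer numbered 11 in the knockout list and 23 in the control list. From 0 to 30 Mb, where the background was also low, covered bases had a ratio of 1.06 and peaks 0.916. The low background therefore did not go with fewer covered bases in every run.

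Of 1066 protein-coding genes on chromosome 3, 224 (21.0%) were higher in the knockout list, meaning at least 1000 more covered bases within the gene record extended by 5000 bases each way, against 20.2% of genes genome-wide. Lower by as much were 365 (34.2%), against 30% genome-wide. Among strong peaks the order turned, with 282 genes higher and 246 lower. Genes of the other chromosomes were not counted under that limit. Their strong peaks leaned further to the knockout list, with a ratio of 1.16 against 1.05 on chromosome 3. Over all peaks, none was found at 98 of the 1066 chromosome 3 genes and at 3160 of 19974 genes genome-wide. On chromosome 3, 17 genes had peaks in the knockout list alone and 44 in the control list alone. The median difference, knockout minus control, was −215 bases, and 0 over all genes. Genes without a peak have a difference of 0 and are a larger part of the genome-wide set. They draw its median toward 0 and lower its shares, so these comparisons are not like for like. The shares lower were alike in the low runs, 34.7%, and the others, 34.0%. The run from 165 to 190 Mb had 52 of its 122 genes lower, 42.6%, and 15 higher, 12.3%. From 0 to 30 Mb, 33 of 126 genes were lower and 40 higher.

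The genes most in favour of the knockout list included a receptor phosphatase and nuclear receptors. Gain and loss stand here for more and fewer covered bases in the knockout list than in the control list. Knockout minus control, the 12 widest gains were 12695 bases or more and the 12 widest losses −17739 bases or below. They were chosen by this difference, which is therefore a description, and long genes can differ by more bases. The named genes that gained had gene records with a median of 326420 bases, and those that lost 173732. The genes next in order were FBXL2, with 31740 knockout and 19740 control bases, and PHC3, with 3180 knockout and 18811 control.

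PTPRG, a receptor-type tyrosine phosphatase studied as a tumour suppressor, had the widest gain, with 145462 covered bases in 45 knockout peaks and 89552 in 35 control peaks. Its record, at 61561571 to 62297609, lies on the island of high background at 61 to 63 Mb, and its peaks had a median background of 5.33 in the knockout list and 4.82 in the control list. Their median fold over input was 3.09 in the knockout list and 3.20 in the control list. More of the gene was covered without a higher fold. Among strong peaks the bases were 101499 in the knockout list and 65905 in the control list.

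THRB, RARB and PPARG encode nuclear receptors for thyroid hormone, retinoic acid and fatty acid ligands, and all 3 lie on the short arm between 12 and 26 Mb. THRB had 71019 knockout and 39812 control bases, and 56150 knockout and 30815 control in strong peaks. PPARG, the regulator of fat cell differentiation, had 47489 knockout and 23434 control. A peak of 20986 bases at 12298659 to 12319644 held the first of the PPARG promoters printed above in the knockout list, where the widest control peak at the gene had 3891 bases. RARB had 35483 knockout and 22482 control bases over the record, yet its printed promoter was covered in the control list alone, by a peak of 3683 bases at 25426150 to 25429832. The gain at RARB thus lay away from that start. Background at these 3 genes was lower in the knockout list, with 5.59 in the knockout list and 6.04 in the control list at THRB, 6.004 in the knockout list and 6.38 in the control list at PPARG, and 5.20 in the knockout list and 5.50 in the control list at RARB.

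Among the other gains, those of PLOD2 and TGFBR2 came with longer knockout peaks. PLOD2, which hydroxylates lysines of collagen, had 47494 knockout and 25721 control bases, and its longest peak had 35934 bases in the knockout list and 15452 in the control list. The strong peaks there covered 38199 knockout and 3898 control bases. That contrast rests mostly on the longest knockout peak, whose −log10 q of 5.11 was just above the limit of 5. The longest control peak had 3.30. The median fold of the gene's peaks was 2.55 in the knockout list and 3.24 in the control list. TGFBR2, the ligand-binding receptor of TGF-beta, had 66973 bases in 5 knockout peaks and 51315 in 7 control peaks, with median lengths of 14160 bases in the knockout list and 4060 in the control list. FOXP1, a forkhead repressor, had 122517 bases in 46 knockout peaks and 95004 in 40 control peaks, and its longest peak was the shorter in the knockout list, 13929 bases against 15328 in the control list. Further gains were at IQCJ-SCHIP1, a read-through of neighbouring genes, with 134633 knockout and 102973 control bases, and MYLK, the myosin light chain kinase, with 65042 knockout and 48564 control bases. TMEM45A, a membrane protein gene whose promoter is printed above, had 33307 knockout and 17522 control, and UBE2E2, a ubiquitin-conjugating enzyme, 69532 knockout and 56837 control. TBL1XR1, a subunit of the NCoR and SMRT corepressor complexes, had 70116 knockout and 42849 control bases but the opposite order in strong peaks, 3908 knockout and 11889 control.

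The widest losses were at genes of adhesion, matrix and cell shape. LPP, a LIM-domain protein of focal adhesions, had 136702 bases in 44 knockout peaks and 186969 in 54 control peaks. It lies on the distal long arm, where the background of its peaks was 3.50 in the knockout list and 4.65 in the control list, and their median fold was 3.32 in the knockout list and 2.97 in the control list. COL8A1, a collagen chain, had 47107 knockout and 82751 control bases, and in strong peaks 3144 knockout and 48431 control. Its longest knockout peak, of 29098 bases, fell just under the limit of 5 with a −log10 q of 4.76. The longest control peak there, of 36873 bases, had 9.19. P3H2, a prolyl hydroxylase that modifies collagen, had 73440 knockout and 108032 control, its longest peak having 12494 bases in the knockout list and 25581 in the control list. PHLDB2, which anchors microtubules at the cell cortex near focal adhesions, had 107272 knockout and 134953 control, with longest peaks of 31371 bases in the knockout list and 52007 in the control list.

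IGF2BP2, an RNA-binding protein, had 78190 knockout and 104269 control bases, although an internal RefSeq start of the gene, printed above, was covered in the knockout list alone. DLG1, a polarity scaffold, had 65139 knockout and 91204 control bases, and in strong peaks the order was the opposite, 19132 knockout and 10825 control. Its longest control peak, of 38581 bases, fell just under the limit of 5 with a −log10 q of 4.71. SETD2, a histone H3 lysine methyltransferase of transcribed genes, had 13797 knockout and 35403 control. It lies where the relative background was near the genome's, at 1.04. Other losses were at CMSS1, with 45728 knockout and 70012 control bases, PPP4R2, a regulatory subunit of protein phosphatase 4, with 28632 knockout and 51041 control, the neuroligin gene NLGN1, with 21385 knockout and 39235 control, and MB21D2, with 38156 knockout and 55895 control. By 5 Mb bin, low-background bins held 8 of the 12 genes that gained and 6 of the 12 that lost. That count depends on the bin borders. PTPRG counts as low, although the relative background was 0.931 at 61 to 62 Mb and 0.896 at 62 to 63 Mb. P3H2 counts as outside, although it was 0.585 at 189 to 190 Mb and 0.643 at 190 to 191 Mb. Of each 12 genes, 11 had the same direction among strong peaks, PPP4R2 only narrowly, with 6364 knockout and 6882 control bases. Among peaks with a fold of at least 4, the direction turned at PPARG (−1660), PLOD2 (−1633), TGFBR2 (−18437) and LPP (14664), in bases of knockout minus control. TBL1XR1, PPP4R2 and NLGN1 had no covered bases in either list at that fold.

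**Figure D4:**
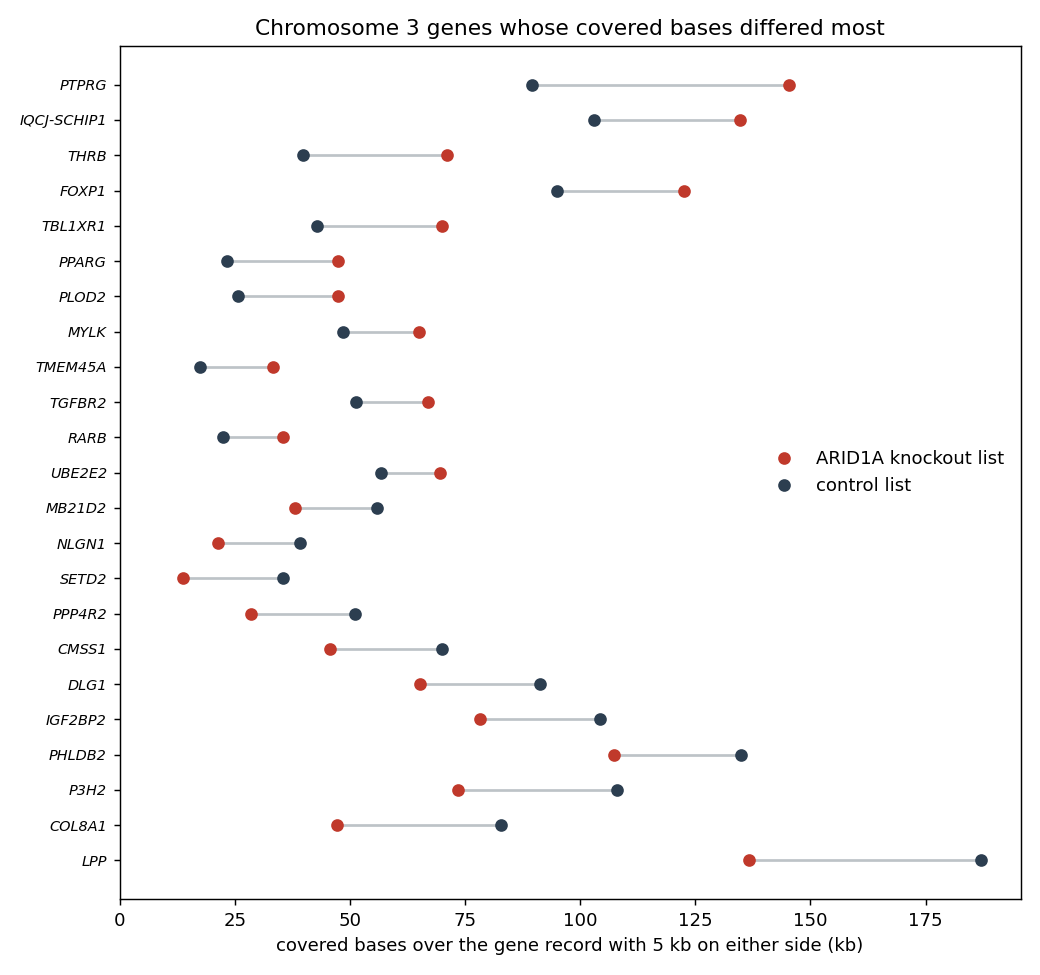
Bases covered by H3K4me1 peaks (kb) over each plotted gene's record extended by 5 kb each way, red for the ARID1A knockout list and dark blue for the control list, with genes in order of the difference. PTPRG at the top covers 145462 bases in the knockout list and 89552 in the control list, and LPP at the bottom 136702 in the knockout list and 186969 in the control list.

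Gene groups of the chromosome, assembled from general knowledge with results of these data already known, are described by counts beside the chromosome's own shares, 21.0% of genes higher and 34.2% lower. As over the chromosome, these counts depend on the peaks used. Of the chromosome's 1066 genes, 282 were higher and 246 lower among strong peaks. At a fold of at least 4, 186 were higher and 243 lower. Among strong peaks the short-arm tumour suppressor genes had 12 higher and 10 lower and the TGF-beta and Wnt list 6 higher and 3 lower, while the long-arm list (10 each), matrix genes (7 each), immune genes (5 each) and interferon-stimulated genes (3 each) were even. Over all peaks, chromatin regulators had 10 of 18 members lower and 1 higher, with a median difference of −2758 bases. Among strong peaks 5 were higher and 10 lower, and at a fold of at least 4 the order turned, with 6 higher and 4 lower. Those with the widest losses were SETD2 and PHC3, a Polycomb protein, both given above, and the 1 higher was TBL1XR1. Among them, chosen after their values were seen because they are SWI/SNF subunits as ARID1A is, SMARCC1 had 13342 knockout and 26621 control bases, PBRM1 10130 knockout and 16752 control, and ACTL6A, within the limit, 5246 knockout and 5478 control. Genes of the long arm known from copy gains in carcinomas had 15 of 29 lower and 7 higher, median −1557, and 24 of the 29 lay in low-background bins. Besides LPP and IGF2BP2 on the lower side and TBL1XR1 on the higher, TNIK, a kinase of the Wnt pathway, had 31577 knockout and 23711 control bases. Tumour suppressor genes of the short arm had 12 of 25 lower and 7 higher, median −945, among them LIMD1, a LIM-domain scaffold, with 49198 knockout and 62112 control.

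Transcription factor genes had 11 of 28 higher and 6 lower with a median of 108, where the chromosome had 21.0% of genes higher and 34.2% lower. THRB and FOXP1 led the gains, and MECOM, a zinc-finger factor of the distal long arm, had 71047 knockout and 84519 control bases. ZNF148, another zinc-finger factor, had 14591 knockout and 22438 control. Of these 28 genes, 4 had no peak in either list, among them the developmental factors ZIC1 and FOXL2.

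The signalling and adhesion groups are set against the same shares, 21.0% higher and 34.2% lower. Axon guidance and immunoglobulin adhesion genes had 13 of 26 lower and 8 higher, median −752.5, with ALCAM, a cell adhesion molecule, at 57167 knockout and 65447 control bases, and LSAMP, a membrane adhesion protein of neurons, at 26053 knockout and 16556 control. At a fold of at least 4 the order of that list turned, with 7 higher and 4 lower, where the chromosome had 186 genes higher and 243 lower. Matrix and adhesion genes had 9 of 25 lower and 7 higher, median −6, and FBLN2, the matrix protein fibulin, had 16283 knockout and 9419 control. The TGF-beta and Wnt list had 6 of 13 lower and 5 higher, median −439. In it RYK, a Wnt co-receptor, had 22815 knockout and 26870 control bases and the ligand WNT7A 13090 knockout and 16817 control. Cytokine and immune genes had 10 of 29 lower and 4 higher, median −274. NFKBIZ, a nuclear regulator of NF-kappaB, had 19069 knockout and 25236 control bases, IRAK2, an interleukin receptor kinase, 40499 knockout and 45017 control, and IL1RAP, the interleukin-1 receptor accessory chain, 26393 knockout and 21396 control. Of 10 interferon-stimulated genes, 4 were lower and 2 higher, median −434.5, with MYD88, the adaptor of Toll-like receptors, at 4972 knockout and 7195 control and PARP14, an ADP-ribosyltransferase, at 4949 knockout and 2684 control. No knockout peak at PARP14 was strong, the highest −log10 q being 3.40, while a control peak of 1860 bases there had 7.52.

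Most of the strongest peaks lay toward the short-arm end and were in both lists. The highest −log10 q in the knockout list was 30.9, at ATG7, an autophagy enzyme, and in the control list 40.6, at IRAK2, where the knockout peak had 25.02. The longest peak of each list was at FNDC3B, a membrane protein gene of the long arm, with 51429 bases in the knockout list and 64473 in the control list. Peaks in a single list were weaker. The strongest in the knockout list, at 16522639 to 16525278, lay 8940 bases from RFTN1, a lipid raft protein, with a −log10 q of 11.8, and the nearest control peak was 7402 bases away. The most isolated of the 5 strongest was 79304 bases from CACNA2D3, a calcium channel subunit, and 323220 bases from the nearest control peak. Next to it in isolation was a peak in GRM7, a glutamate receptor gene, 297237 bases from the nearest control peak. The others were in TEX264 and TBC1D5. In the control list the strongest single peak lay in IQSEC1, an activator of ARF GTPases, at 13069137 to 13070353, with a −log10 q of 12.9 and a knockout peak 3154 bases away. The other 4 lay near SLC4A7 and PRKCI and in ANO10 and PLXNA1.

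Around transcription start sites both lists had the shoulders known for this mark, and the dip between them was shallower in the knockout list. Over 1356 RefSeq starts of 927 chromosome 3 genes, the window of 250 bases on either side of the start was covered at 26.4% in the knockout list and 19.4% in the control list. The other 22 chromosomes had 24.1% in the knockout list and 15.0% in the control list. The downstream shoulder reached 42.9% in the knockout list and 42.4% in the control list, both 1625 bases past the start. The upstream shoulder reached 33.7% at 875 bases before the start in the knockout list and 32.7% at 1125 bases in the control list. At the far ends of the window the control list was higher, with 9.03% for the knockout and 10.4% for the control list upstream, and 13.8% for the knockout and 16.8% for the control list downstream. The smallest gaps and shortest peaks differ between the lists, 361 bases being the shortest knockout and 312 the shortest control peak. With the same merging distance and shortest peak imposed on both, the window at the start was covered at 26.4% in the knockout list and 23.9% in the control list, a ratio of 1.11 in place of 1.36.

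**Figure D5:**
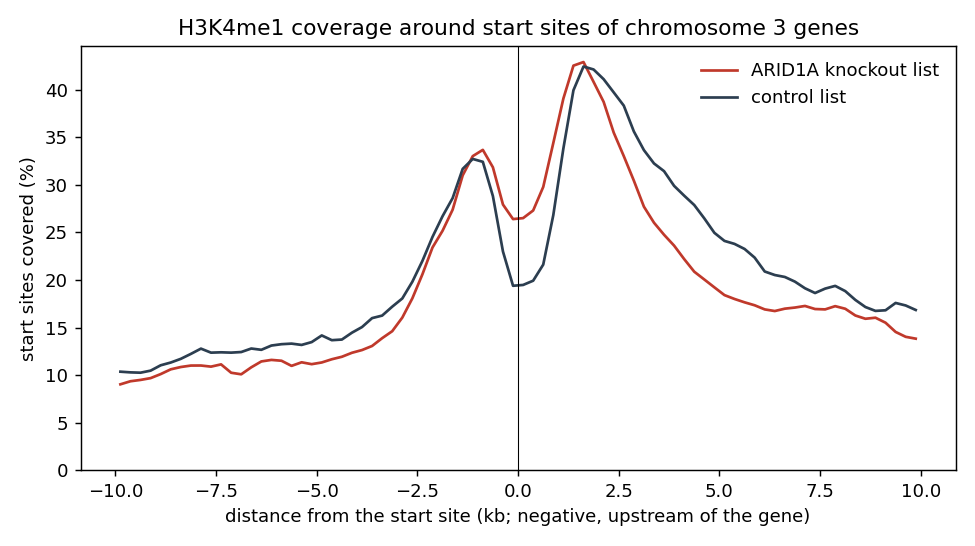
Percentage of 1356 RefSeq start sites of chromosome 3 genes covered by an H3K4me1 peak, against distance from the start (kb, negative upstream), red for the ARID1A knockout list and dark blue for the control list. Both curves dip at the start, to 26.4% in the knockout list and 19.4% in the control list, between an upstream and a taller downstream shoulder.

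Whole promoters, the 250 bases before a start, were covered in the knockout list alone at 148 starts of 124 genes, 10.9% of chromosome 3 promoters against 11.6% elsewhere, and in the control list alone at 55 starts of 46 genes, 4.06% against 3.002% elsewhere. Both lists covered 178, neither touched 901, and 74 were covered in part. With the same merging imposed, the counts were 108 for the knockout and 73 for the control list alone. The knockout-only promoters were rich in CpG, with a median of 22 CpG and 65.2% G and C, against 12.5 and 60.8% for promoters covered in both lists. Control-only promoters had 14 and 60.8%, and all chromosome 3 promoters 16 and 61.4%. GGGCGG occurred in 63.5% of the knockout-only promoters, in 58.2% of the control-only ones and in 50.6% of those covered in both, beside 51.7% of all chromosome 3 promoters. TGANTCA occurred in 2 of the 148, 1.35%, in 3.64% of the control-only promoters and in 10.7% of those covered in both, beside 5.31% of all chromosome 3 promoters and 5.36% genome-wide. GGAATG occurred in 11.7% of chromosome 3 promoters and 10.5% genome-wide. On the other chromosomes the knockout-only promoters had 20 CpG at the median, and 3.88% held TGANTCA. Many promoters hold more than one start, and overlapping windows share sequence, so these shares are descriptions. The FHIT and IGF2BP2 sequences printed above are the 2 knockout-only promoters that hold TGANTCA. FHIT, a tumour suppressor gene in a common fragile site, had 49138 covered bases in the knockout list and 59310 in the control list over its whole record. RASSF1, a short-arm tumour suppressor gene, was also among the genes with a knockout-only promoter, with 6843 knockout and 5635 control covered bases over its record.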

How the data were processed

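H3K4me1 immunoprecipitates and inputs of MDA-MB-231 cells of both genotypes were sequenced, with 2 samples in each of 4 groups read from the labels for genotype and antibody. Bowtie2 2.3.5.1, MACS2 2.2.6 and hg38 are named per the submitters' processing notes. Their settings, the treatment of duplicate reads and the way replicates were combined were not given in the sources used here. Each list was taken as 1 pooled call. The authors deposited 1 peak list per genotype. Per the file headers, the deposited columns used here give each peak's position, its pileup (a signal of stacked fragments), its fold enrichment over input, and the −log10 of a q-value. Fold and −log10 q, as the authors deposited them, describe a peak relative to the input of its genotype. They served to rank peaks and to set thresholds inside each list. Each list's lowest −log10 q rounded to 1.01. Without read totals the depth is unknown, and weak peaks are the less certain ones.

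Peaks on chromosomes 1 to 22 and X were read in Python 3.11.15 with pandas 2.3.3, numpy 2.4.6 and scipy 1.17.1, and plotted with matplotlib 3.10.9. This left out 3 knockout and 6 control peaks on other sequences. Peaks went to bins by midpoint, and covered bases were clipped at bin borders. A bin counted as higher or lower at a ratio of 1.5, among bins with at least 40 peaks in both lists together. The implied background assumed a pseudocount of 1, the MACS2 default, and its medians were divided as knockout over control and by the same ratio over all peaks. Pairs were peaks that overlap between lists, and a relative background under 0.85 defined the low runs. Intervals are exact (Clopper-Pearson) at 95%, and cover counting error over peaks that are not independent. Gene records, start sites and promoters came from RefSeq for GRCh38.p14, which shares chromosome coordinates with hg38. All listed genes matched a symbol there. Only the 250 bases before each start were searched for motifs. No genome sequence was used, so the sequences of the peaks were not read.

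Named genes were the 12 widest gains and the 12 widest losses in covered bases (passing over genes with a window that overlaps one chosen earlier), the 2 genes that differed most in each called bin, up to 2 members of each list in each direction, and the 5 strongest single-list peaks of each list. Some were left out for length, and some genes and 1 gene list are not reported here. The members, lists and rules were chosen with earlier results of these data known. Alternatives were a lower limit of 5 on −log10 q or of 4 on fold, the same merging distance and shortest peak in both lists (1445 and 361 bases), other bins, other windows around genes, an overlap of 50%, and another pseudocount. Leaving out a replicate was not possible, because each list is 1 call. The counting code was tested on simulated data.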

Additional observations from a re-analysis of the deposited data

How the results depend on the processing

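No paired analysis was possible because each genotype has 1 deposited list with no replicate columns. At a −log10 q of 5 or more, the chromosome 3 ratios, knockout over control, turned to 1.05 for peaks and 1.07 for covered bases, TBL1XR1 turned to −7981 bases and DLG1 to 8307. Among peaks with a fold of at least 4, PPARG turned to −1660, PLOD2 to −1633, TGFBR2 to −18437 and LPP to 14664. A threshold may be stricter in one list than in the other. Bins higher in the knockout list, 0 as reported, were 6 at that −log10 q, 1 at that fold and 1 with bins of 2.5 Mb. Bins lower, 1 as reported, were 4 at that fold, 4 with bins of 2.5 Mb and 0 with bins of 10 Mb. Genes lower, 365 as reported, were 243 at that fold and 576 with 50000 bases on either side. With an overlap of at least 50%, peaks without a partner were 31.2% of the knockout and 38.2% of the control peaks. With both lists cut to strong peaks, those without a strong partner were 30.1% of the knockout and 26.1% of the control peaks. At a fold of at least 4, promoters covered in one list were 42 for the knockout and 28 for the control list. The cause of these moves was not tested, except that stricter peaks leave fewer peaks to count. Some alternatives at start sites, paired peaks, gene lists and other limits than 0.85 were chosen after seeing the data. The chromosome's relative background was 0.842 without the pseudocount and 0.805 over shared peaks, and the bins under the limit numbered between 19 and 24. Of the 24 genes named for their covered bases, 23 stayed within 1.5 times of the reported difference with the same merging in both lists, 11 among strong peaks and 5 at a fold of at least 4.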

Other observations

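Some chromosome 3 genes had peaks in a single list, and the few named here were chosen after their values were seen. In the knockout list alone, the most bases were covered at CLSTN2, a calsyntenin of synapses, with 2577 in 1 peak, and CNTN4 and CNTN6, neuronal contactins near the short-arm end, had 2094 and 1161, with no control peak. In the control list alone, HTR1F, a serotonin receptor gene near the centromere, had 7051 bases in 5 peaks and no knockout peak. EPHA3, an ephrin receptor, and POU1F1, the pituitary transcription factor, lie in the same bin and had 2247 and 1904. MASP1, a protease of the lectin complement pathway, had 5277 bases and LAMP3, a lysosomal membrane protein, 5317, both on the distal long arm. These counts are of covered bases within the gene record and 5000 bases beyond each end, and peaks in one list were mostly weak.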
